A study of Mus musculus with 8 samples.

Results

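Tcf7l2, Shox2, Lef1, Slc17a6, Prkcd, Ramp3, Plekhg1, Synpo2 and Tnnt1 are 9 genes that thalamic neurons are known to express, and they were followed here in the brain cortexes of mice on 2 diets. They are the genes of these names among the 13996 genes with FPKM values (FPKM counts sequenced fragments of a gene relative to the length of its transcripts and the size of the library). They were proposed with earlier results of these libraries known, including the difference between normal and high fat diet mice, so that difference is described below for the members and not tested. Of the 9 genes, 8 are among the 13982 genes that reach a mean FPKM of 1 and are never listed at 0. Shox2 is not, because it is listed at 0 in 1 mouse.

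All 8 mice were male C57BL/6 animals that entered the study at 8 weeks of age and were 16 weeks old when the cortex was taken. The 4 normal diet mice received conventional food and the 4 high fat diet mice received food with 60% fat by weight, in each case for 8 weeks. Each mouse gave 1 library of total RNA without rRNA, numbered 1 to 4 within its diet. No transgene, deletion or drug treatment is given for either group, and how the cortex was separated from the tissue below it is not stated in the sources read here.

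The thalamus is the relay station below the cortex, and its excitatory neurons send axons to the cortex. Tcf7l2 encodes a transcription factor of the TCF/LEF family, through which beta-catenin acts on genes in the Wnt pathway, and it is a widely used marker of thalamic neurons after birth. Thalamic neurons package glutamate with the transporter made from Slc17a6, whereas most cortical excitatory neurons use the one made from Slc17a7.

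The 9 genes had their highest FPKM in the same normal diet mice. Normal mouse 2 was the highest of the 8 mice in 9 of 9 genes and normal mouse 3 was the second highest in 9 of 9. Normal mouse 4 was the lowest normal diet mouse in 9 of 9 genes. Among all 13982 genes tested, which leave out Shox2, 16% had normal mice 2 and 3 both above the other 6 mice. This share is given as a description, because the 9 genes were proposed with earlier results of these libraries known. Summed over the 9 genes, FPKM was 50.7, 117.3, 98.6 and 35.2 in normal mice 1 to 4, and 33.1, 32.6, 34.7 and 31.4 in high fat mice 1 to 4. The high fat diet mice therefore lay within a narrow band, and normal mice 2 and 3 lay far above it. In RNA from whole tissue, fewer cells of a type and less RNA per cell cannot be told apart.

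**Figure D1:**
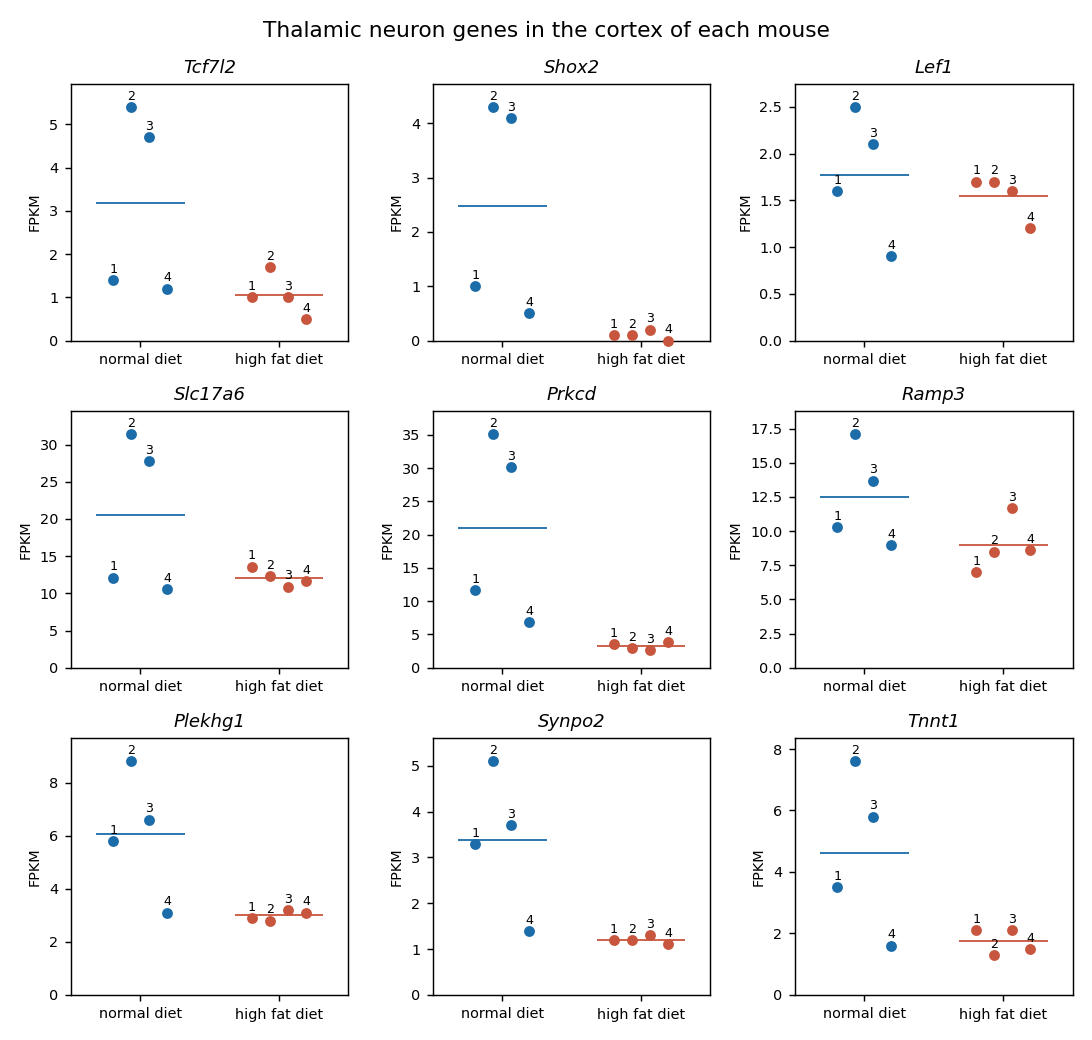
FPKM of each of the 9 genes (linear axes from 0) in 4 normal diet mice (blue) and 4 high fat diet mice (red). Points are single mice with their number and lines are diet means, drawn except for Shox2 on the high fat diet, where a mouse is listed at 0. Normal mice 2 and 3 were the highest in 9 of 9 genes.

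All 4 normal diet mice lay above all 4 high fat diet mice for Shox2, Prkcd and Synpo2, 3 of the 9 genes. Of all genes tested, 14.7% had every normal diet mouse above every high fat diet mouse, and nothing is read from the count because the diet difference was known when the genes were proposed. The other 6 genes overlapped between the diets. Against the range of the 4 high fat diet mice, normal mouse 1 lay above it in 5 genes and within it in 4, and normal mouse 4 lay above it in 3, within it in 4 and below it in 2. Fold changes are given as log2 of FPKM + 0.1, high fat minus normal diet, with the standard error (SE) from limma. The added 0.1 understates the change of genes with low FPKM.

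Tcf7l2 (ENSMUSG00000024985.18) spans 55741820 to 55933654 of chromosome 19 (plus strand, GRCm38) and has 22 annotated transcripts. Its FPKM was 1.4, 5.4, 4.7 and 1.2 in normal mice 1 to 4 and 1.0, 1.7, 1.0 and 0.5 in high fat mice 1 to 4. Normal mice 1 and 4 lay within the range of the high fat diet mice, while normal mice 2 and 3 were above it. Normal diet mice had a mean of 3.18 ± 2.19 and high fat diet mice 1.05 ± 0.493 (SD, n = 4 each). The log2 fold change was -1.32 (SE 0.51). The values are per gene, so the use of single Tcf7l2 transcripts was not analysed here.

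Shox2, a homeobox gene required for firing properties of thalamic relay neurons (ENSMUSG00000027833.16, minus strand of chromosome 3, 66971727 to 66981771), had high fat diet values near 0. Its FPKM was 1.0, 4.3, 4.1 and 0.5 in normal mice 1 to 4, and 0.1, 0.1, 0.2 and 0.0 in high fat mice 1 to 4. The lowest normal diet mouse, number 4, was thus above the highest high fat diet mouse. The log2 fold change was -3.33 (SE 0.66) with 0.1 added and -1.45 with 1 added, since the high fat diet values lie at the limit set by rounding to 0.1. Shox2 overlaps Rsrc1, which lies on the opposite strand and held 20.9, 24.8, 25.1 and 20.5 FPKM in the normal diet mice and 19.9 to 22.8 in the high fat diet mice. Whether strand was used when fragments were assigned is not stated in the sources read here.

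Lef1 encodes the other TCF/LEF factor of the set (ENSMUSG00000027985.14, plus strand of chromosome 3, 131110471 to 131224356) and is also known in brain endothelium. Its FPKM was 1.6, 2.5, 2.1 and 0.9 in normal mice 1 to 4 and 1.7, 1.7, 1.6 and 1.2 in high fat mice 1 to 4. Only the mice numbered 2 and 3 of the normal diet were above the high fat diet mice, and normal mouse 4 was below them. The means of 1.78 ± 0.690 and 1.55 ± 0.238 (SD, n = 4 each) differed by less than the spread of the normal diet mice. The log2 fold change of -0.11 (SE 0.27) became 0.08 without normal mouse 2 and 0.00 without high fat mouse 4. Among the 3 transcription factors, Lef1 was therefore the one without a steady direction.

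The 250 bases before the start of the first Tcf7l2 promoter window and of the Shox2 window are printed from RefSeq (GRCm38.p6), 5′ to 3′ on the strand of the gene, because both encode transcription factors that mark these neurons. The windows lie at chr19:55741560-55741809 (plus strand) and chr3:66981772-66982021 (minus strand). Capitals mark CTTTGA, the core letters of TCF/LEF sites, which on the opposite strand read TCAAAG.
Tcf7l2: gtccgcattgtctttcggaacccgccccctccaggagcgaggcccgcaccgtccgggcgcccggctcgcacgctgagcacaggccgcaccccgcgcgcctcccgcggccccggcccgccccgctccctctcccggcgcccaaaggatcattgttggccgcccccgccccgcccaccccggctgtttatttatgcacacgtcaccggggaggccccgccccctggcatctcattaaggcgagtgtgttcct
Shox2: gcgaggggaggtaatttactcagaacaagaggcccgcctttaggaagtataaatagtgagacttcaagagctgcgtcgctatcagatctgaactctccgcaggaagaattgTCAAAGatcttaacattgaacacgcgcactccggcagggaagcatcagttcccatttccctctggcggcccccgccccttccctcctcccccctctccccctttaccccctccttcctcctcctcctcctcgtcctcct
The Shox2 window holds 1 match, whose first base lies at -139 from the annotated start, and the Tcf7l2 window holds 0. The Tcf7l2 window has 70% G and C and the Shox2 window 53.3%, against a median of 52.7% over 32851 promoter windows of equal length (250 bases before and 50 after the start).

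Slc17a6 encodes vesicular glutamate transporter VGLUT2 (ENSMUSG00000030500.6, plus strand of chromosome 7, 51622006 to 51671119). Its FPKM was 12.1, 31.4, 27.8 and 10.6 in normal mice 1 to 4 and 13.6, 12.3, 10.9 and 11.6 in high fat mice 1 to 4. Normal mouse 1 lay within the range of the high fat diet mice and normal mouse 4 just below it, whereas normal mice 2 and 3 were above all of them. Normal diet mice had a mean of 20.5 ± 10.7 and high fat diet mice 12.1 ± 1.15 (SD, n = 4 each), with a log2 fold change of -0.60 (SE 0.32). Leaving out normal mouse 2 gave -0.34 and leaving out normal mouse 3 gave -0.40, and without both of these mice it was 0.09 (SE 0.10). Slc17a6 is also transcribed by some cortical neurons, and its mean on the high fat diet was the highest of the 9 genes on the FPKM scale.

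Prkcd, the gene of protein kinase C delta (ENSMUSG00000021948.17, minus strand of chromosome 14, 30595354 to 30626210), had the widest spread in FPKM of the 9 genes among the normal diet mice. Its FPKM was 11.7, 35.1, 30.1 and 6.9 in normal mice 1 to 4 and 3.5, 3.0, 2.7 and 3.8 in high fat mice 1 to 4. Every normal diet mouse was above every high fat diet mouse, and normal mouse 4 was the nearest to them. Normal diet mice had a mean of 20.95 ± 13.7 and high fat diet mice 3.25 ± 0.493 (SD, n = 4 each), and the log2 fold change was -2.37 (SE 0.45). The highest normal diet mouse held 5.09 times the FPKM of the lowest, against 1.41 times within the high fat diet. Prkcd and Slc17a6 were at similar mean FPKM on the normal diet, but on the high fat diet Prkcd was lower than Slc17a6 in 4 of 4 mice.

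Ramp3 encodes an accessory protein that sets the ligand preference of calcitonin family receptors (ENSMUSG00000041046.7, plus strand of chromosome 11, 6658521 to 6677475). Its FPKM was 10.3, 17.1, 13.7 and 9.0 in normal mice 1 to 4 and 7.0, 8.5, 11.7 and 8.6 in high fat mice 1 to 4. The diets overlapped, with high fat mouse 3 above normal mice 1 and 4. Normal diet mice had a mean of 12.5 ± 3.64 and high fat diet mice 8.95 ± 1.97 (SD, n = 4 each), and the log2 fold change was -0.46 (SE 0.21). It was -0.30 without normal mouse 2.

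The 250 bases before the outer of its 2 RefSeq windows' starts, at chr14:30626209-30626458 (minus strand, RefSeq, GRCm38.p6) are printed because Prkcd had the largest difference of the members within the filter. Capitals again mark TCAAAG.
Prkcd: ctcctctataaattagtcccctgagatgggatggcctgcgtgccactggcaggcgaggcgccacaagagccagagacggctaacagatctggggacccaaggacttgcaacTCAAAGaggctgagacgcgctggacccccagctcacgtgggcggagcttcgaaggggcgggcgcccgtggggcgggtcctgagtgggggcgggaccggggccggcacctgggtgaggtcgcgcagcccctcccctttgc
This window holds 1 match, at -139 from the start. Over all 9 members, which matched 15 RefSeq windows, CTTTGA on either strand was found in 3 of the 15 (those of Shox2 and Prkcd shown here and 1 of Lef1), and 16.0% of the 32851 windows of all genes hold it. The longer form CTTTGAT, which overlaps it, was found in 0 of the 15 and in 3.73% of all windows. These matches are letters in a window and say nothing of whether a factor binds there.

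Plekhg1, Synpo2 and Tnnt1 encode proteins tied to actin, its signalling or the contractile apparatus. Plekhg1, the gene of a guanine nucleotide exchange factor (ENSMUSG00000040624.17, plus strand of chromosome 10, 3740364 to 3967303), was at 5.8, 8.8, 6.6 and 3.1 FPKM in normal mice 1 to 4 and at 2.9, 2.8, 3.2 and 3.1 in high fat mice 1 to 4. Normal mouse 4 lay within the range of the high fat diet mice, and the other 3 normal diet mice lay above it. Means of 6.08 ± 2.35 in normal diet mice and 3.00 ± 0.183 in high fat diet mice were found (SD, n = 4 each), and the log2 fold change was -0.90 (SE 0.26).

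Synpo2, which encodes the actin-binding protein myopodin (ENSMUSG00000050315.13, minus strand of chromosome 3, 123076519 to 123236149), was at 3.3, 5.1, 3.7 and 1.4 FPKM in normal mice 1 to 4 and at 1.2, 1.2, 1.3 and 1.1 in high fat mice 1 to 4. The diets did not overlap, but normal mouse 4 was only 1 rounding step above high fat mouse 3. Normal diet mice had a mean of 3.38 ± 1.53 and high fat diet mice 1.2 ± 0.0816 (SD, n = 4 each), and the log2 fold change was -1.29 (SE 0.32). The 250 bases before its start (chr3:123236150-123236399, minus strand, RefSeq, GRCm38.p6) are printed because they hold the palindrome TAATTA, the core letters of homeodomain sites, shown in capitals at -224.
Synpo2: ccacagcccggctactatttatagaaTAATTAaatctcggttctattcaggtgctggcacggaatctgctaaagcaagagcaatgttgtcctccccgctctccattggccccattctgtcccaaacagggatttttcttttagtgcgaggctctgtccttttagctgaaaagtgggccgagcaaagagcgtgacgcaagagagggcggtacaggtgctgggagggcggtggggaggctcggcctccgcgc
TAATTA was found in 2 of the 15 member windows, those of Synpo2 and 1 of Slc17a6, and in 5.29% of all windows.

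Tnnt1, the gene of slow skeletal muscle troponin T and a known marker of thalamic neurons (ENSMUSG00000064179.13, minus strand of chromosome 7, 4504570 to 4516382), was at 3.5, 7.6, 5.8 and 1.6 FPKM in normal mice 1 to 4. It was at 2.1, 1.3, 2.1 and 1.5 in high fat mice 1 to 4. Normal mice 1, 2 and 3 lay above the high fat diet mice and normal mouse 4 among them. The means were 4.63 ± 2.62 in normal diet mice and 1.75 ± 0.412 in high fat diet mice (SD, n = 4 each), and the log2 fold change was -1.17 (SE 0.41).

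How far these differences rest on normal mice 2 and 3 was examined by leaving out both, a setting chosen after seeing the data because these mice also held the highest cerebellar marker sums. Since they are the 2 highest mice in every member, the direction of the shift is fixed by that choice, and its size alone is described. The median log2 fold change of the 9 genes was then -0.45, against -1.17 with all 8 mice. Prkcd was at -1.45 (SE 0.21), Shox2 at -2.13 (0.59) and Synpo2 at -0.80 (0.30). Plekhg1 was at -0.49 (0.22), Tnnt1 at -0.45 (0.32), Tcf7l2 at -0.39 (0.39) and Ramp3 at -0.13 (0.18), each with its SE in brackets. Lef1 and Slc17a6 turned to 0.33 (0.25) and 0.09 (0.10). With 1 mouse left out at a time, 8 of the 9 genes had a negative log2 fold change in every case, and Lef1 was the exception.

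**Figure D2:**
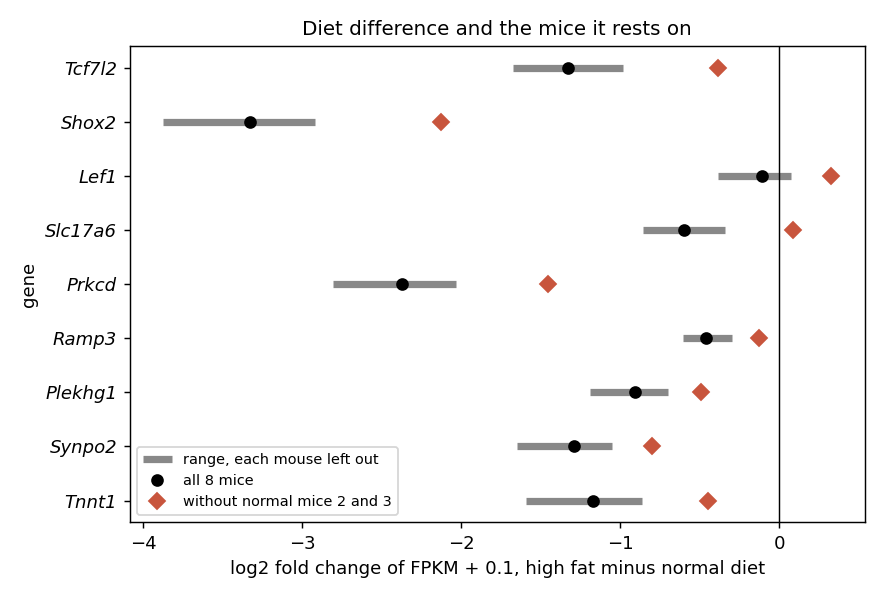
Log2 fold change of FPKM + 0.1 (high fat minus normal diet) for each of the 9 genes with all 8 mice (black circles), as the range over the 8 ways to leave out 1 mouse (grey bars), and without normal mice 2 and 3 (red diamonds). Because these mice are the 2 highest in every gene, leaving them out can only raise the values. The diamonds lie closer to 0 than the circles or, for Lef1 and Slc17a6, on the other side of 0.

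Most other genes known for the thalamus were also highest in normal mice 2 and 3. Of 20 such genes outside the set, 16 had FPKM values, and normal mice 2 and 3 were the 2 highest of the 8 mice in 11 of these, against 16% of all genes tested. Gbx2, Lhx9, Slitrk6 and Six3 were not analysed here. The FPKM summed over the 16 genes was 207.2, 369.4, 379.7 and 241.3 in normal mice 1 to 4 and 190.6 to 202.8 in the high fat diet mice. As in the sums of the 9 members, normal mice 2 and 3 were the highest. Unlike in those sums, normal mouse 3 was above normal mouse 2, and normal mouse 4 was above normal mouse 1. The order of normal mice 2 and 3 in this sum rests on Calb2 and Zic1. Calb2 was at 71.2 FPKM in normal mouse 2 and 83.1 in normal mouse 3, and Zic1 at 39.9 and 49.9. Most of the gap between normal mice 1 and 4 also came from these genes, with Calb2 at 11 and 36.6 and Zic1 at 5.7 and 12.5. By limma's adjusted p (two-sided, Benjamini-Hochberg over the 13982 genes, below 0.05), 7 of the 16 were lower and 1 was higher in high fat diet mice. Over all genes tested, 15.3% were lower and 17.7% higher by that rule. Without normal mice 2 and 3, 5 of the 16 passed in place of 8. The median log2 fold change was -0.39 over the 16 genes and 0.00311 over all genes. Such p-values set the diet difference against the spread of the mice within each diet. They take no account of a pattern that normal mice 2 and 3 share across genes. This list, like the other lists below, was chosen with earlier results of these data known, so its counts are a description and no independent evidence.

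Plcb4, which encodes a phospholipase C (24, 39.9, 39.5 and 24.2 FPKM in normal mice 1 to 4, 14.2 to 19.2 in high fat diet mice), fell by 0.97 on the log2 scale (SE 0.19, limma adjusted p = 0.00457). Amotl1, a cell junction gene, fell by 0.78 (SE 0.18, limma adjusted p = 0.00938), and Ptpn4, a tyrosine phosphatase gene, by 0.34 (SE 0.07, limma adjusted p = 0.00749). Zic1, a zinc finger transcription factor gene, was at 5.7, 39.9, 49.9 and 12.5 FPKM in normal mice 1 to 4 and at 3.3 to 3.7 in the high fat diet mice, and Calb2, which encodes calretinin, was at 11, 71.2, 83.1 and 36.6 against 7.1 to 10.9. Their log2 fold changes were -2.43 (SE 0.58, limma adjusted p = 0.0118) and -2.16 (SE 0.54, limma adjusted p = 0.0142). Zic1 and Calb2 are also strongly expressed by cerebellar granule cells, and Calb2 had a limma adjusted p of 0.0763 without normal mice 2 and 3. Genes of this list need not be particular to the thalamus. The part of the cerebellum in their values was not tested, and cerebellar markers were highest in the same normal mice 2 and 3.

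Foxp2, a forkhead factor gene, fell by 0.63 (SE 0.17, limma adjusted p = 0.0194) and missed the threshold without normal mouse 2 (limma adjusted p = 0.0539). Adarb1, an RNA editing enzyme gene, fell by 0.22 (limma adjusted p = 0.0337), and the call did not hold without normal mouse 2 or 3 or high fat mouse 1, 2 or 4, where the limma adjusted p reached up to 0.0867. Rora, the gene of a nuclear receptor, did not pass (limma adjusted p = 0.0952). It had 20.5, 34.4, 31.9 and 18.3 FPKM in normal mice 1 to 4 and 17.5 to 19.2 in high fat diet mice, an order like that of the members. Sox2 (log2 fold change 0.08, limma adjusted p = 0.368) did not pass either. Lhx2, a LIM homeobox gene that is also expressed in cortex, was the 1 gene of the list that passed as higher, with 14.1, 10.3, 8.2 and 13.4 FPKM in normal mice 1 to 4 and 19.9 to 22.4 in high fat diet mice. It rose by 0.89 on the log2 scale (SE 0.15, limma adjusted p = 0.00285).

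**Figure D3:**
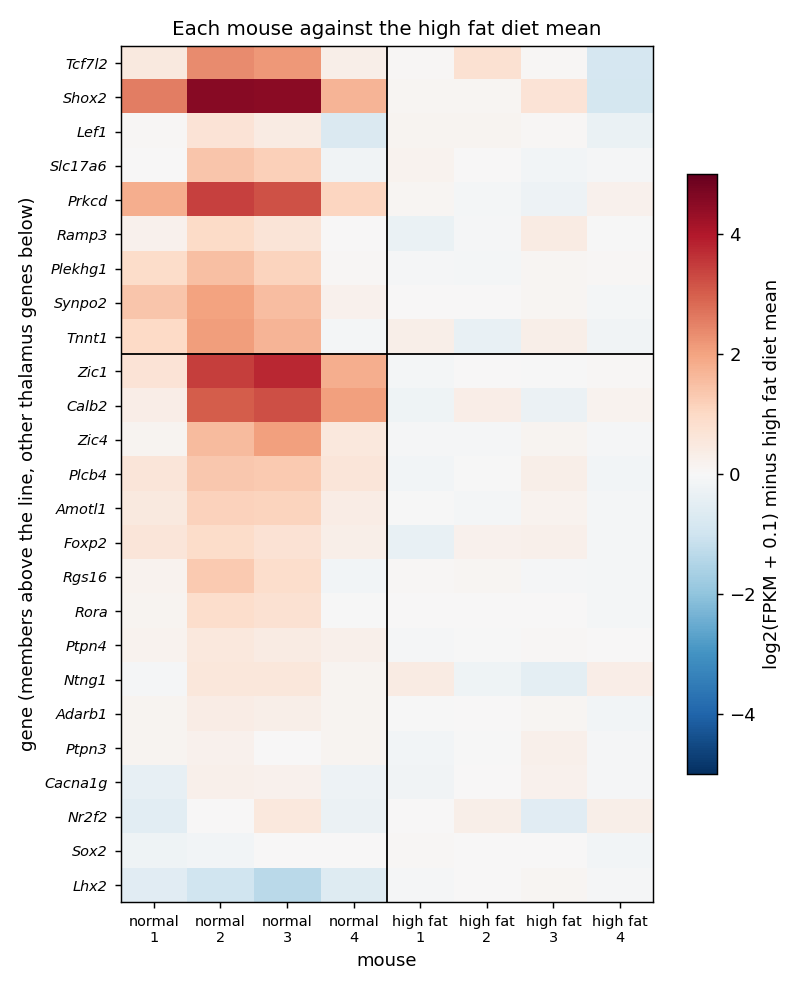
Log2(FPKM + 0.1) of each mouse minus the mean of the high fat diet mice, for the 9 members (above the black line) and 16 other thalamus genes (below it). Red is above that mean and blue below it, and normal mice 2 and 3 hold the darkest red in most genes.

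The genes most like the members across mice were found from log2(FPKM + 0.1) after subtraction of each diet's mean, by Pearson's r over the 8 mice with the mean of the 8 members within the filter. This is a description over points that share their libraries. Zfp229 had an r of 0.990, F2r and Snx1 0.981 each, Hhip 0.979, Eml1 0.977, Tbc1d12 0.976, RP24-131G14.5 0.975, Dock5 0.973, Crtc2 0.971 and Rora 0.968. F2r, which encodes a thrombin receptor, was at 2.1, 3.4, 3.0 and 1.8 FPKM in normal mice 1 to 4 and at 1.4 or 1.5 in the high fat diet mice. Hhip, which encodes a hedgehog-binding protein, was at 1.7, 2.3, 2.1 and 1.4 against 1.3 to 1.5. The members themselves had r between 0.816 for Ramp3 and 0.956 for Tnnt1, with Tcf7l2 at 0.853. Each member is part of that mean, which raises its r, so these values do not compare with those of the other genes.

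Cerebellar markers, and some hypothalamus and midbrain markers, were high in the same normal diet mice as the members. Of 9 cerebellar markers, 8 had values and 8 of these were highest in normal mice 2 and 3, which for the members was the case in 9 of 9. Their summed FPKM was 55.1, 253.3, 341.4 and 104.9 in normal mice 1 to 4 and 41.7 to 49.8 in high fat diet mice. Gabra6, a GABA receptor gene of granule cells, was at 1.7, 46.5, 61.7 and 12.2 in the normal diet mice and at 0.0 to 0.2 in the high fat diet mice, with high fat mouse 1 listed at 0. The 6 of 12 hypothalamus and midbrain markers with values summed to 8.8, 46.1, 42.3 and 15.3 in normal mice 1 to 4 and to 6.1 to 7.1 in high fat diet mice, and 3 of these 6 were highest in normal mice 2 and 3. Pmch, the melanin-concentrating hormone gene, gave the largest share of the sum in both of these mice, with 0.5, 24.7, 17.8 and 2.5 against 0.1 to 1.1, while Th, which encodes tyrosine hydroxylase, was highest in normal mouse 4 (2, 4.2, 3.5 and 5.6). By limma's adjusted p, 3 of 7 cerebellar and 3 of 6 hypothalamus and midbrain markers were lower in high fat diet mice (15.3% of all genes), and without normal mouse 1 the cerebellar count was 7 of 7. The Pmch call did not hold without normal mouse 2 or 3 or high fat mouse 1, 2 or 4 (limma adjusted p up to 0.0711). Of these lists, Pcp2, Hcrt, Oxt, Agrp, Sim1, Nkx2-1 and Slc6a3 were not analysed here. Normal mouse 1 lay above normal mouse 4 in the member sum but below it in both marker sums. The part of these regions in the members' values was not tested.

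Markers of the striatum, which also lies below the cortex, were high in all 4 normal diet mice. The 9 of 10 striatal markers with values summed to 440.1, 361.1, 343.8 and 238.8 FPKM in normal mice 1 to 4 and to 79.4 to 88.9 in high fat diet mice, so that normal mouse 1 was the highest in striatal markers but only the third highest in the member sum. All 9 passed the test as lower (15.3% of all genes), such as the enkephalin gene Penk with a log2 fold change of -3.24 (SE 0.17, limma adjusted p = 4.88e-05). The tissue labelled as cortex expressed all 8 cortical projection neuron markers in every mouse, and they summed to 184.6, 127.7, 119.3 and 175.9 in normal mice 1 to 4 and to 182.4 to 238.6 in high fat diet mice. Normal mice 2 and 3, the highest in the members, were thus the lowest in cortical markers, and 7 of the 8 cortical markers had both of these mice lowest (17.2% of all genes). By the test, 5 of the 8 were higher on the high fat diet (17.7% of all genes), among them Cux2 and Tbr1, upper and deep layer factors, at 0.77 (limma adjusted p = 0.0014) and 1.04 (limma adjusted p = 0.00442). The habenula, next to the thalamus, had 3 of 8 markers with values, which summed to 27.4, 21.9, 26.6 and 30.1 against 27.6 to 40.3, and 1 of them was higher. This was Nwd2 (0.41, limma adjusted p = 0.0332), a call that did not hold without normal mouse 2 or 3 or high fat mouse 1, 2 or 4 (limma adjusted p up to 0.09), and 2 habenular markers passed without high fat mouse 3. Drd1 of the striatal list and Gpr151, Pou4f1, Chrnb3, Chrnb4 and Chrna3 of the habenular list were not analysed here. The part of these tissues in the members' values was not tested either.

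Tcf7l2 is also known in newly formed oligodendrocytes and Lef1 in endothelium. The 7 markers of newly formed oligodendrocytes summed to 39.3 to 46.4 FPKM in normal diet mice and 31 to 31.9 in high fat diet mice, and 3 of 7 were lower by limma's adjusted p. All 8 markers of mature oligodendrocytes were lower on the high fat diet by limma's adjusted p, and 6 of 8 without normal mice 2 and 3. They summed to 2884.2, 3517.2, 3169.5 and 2140.2 FPKM in normal mice 1 to 4, the order of the member sums. High fat diet mice had 1474.3 to 2037.8. Normal mice 2 and 3 were the highest in 6 of these 8 markers. The 10 endothelial markers summed to 121.4 to 144.2 against 115.2 to 125.6, with 4 lower and 1 higher (3 lower and 0 higher without high fat mouse 1). By the same rule, 15.3% of all genes tested were lower and 17.7% higher. The sum of the newly formed oligodendrocyte markers was 39.5, 46.2, 46.4 and 39.3 in normal mice 1 to 4, and 3 of the 7 were highest in normal mice 2 and 3. Most of that gap came from Cnksr3 (2.6, 7.3, 7.7 and 2.8), whereas Gpr17 was at 15, 14.7, 13 and 14.2. The endothelial sum was highest in normal mice 2 (144.2) and 1 (138.6). The part of these cells in the values of Tcf7l2 and Lef1 was not tested.

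**Figure D4:**
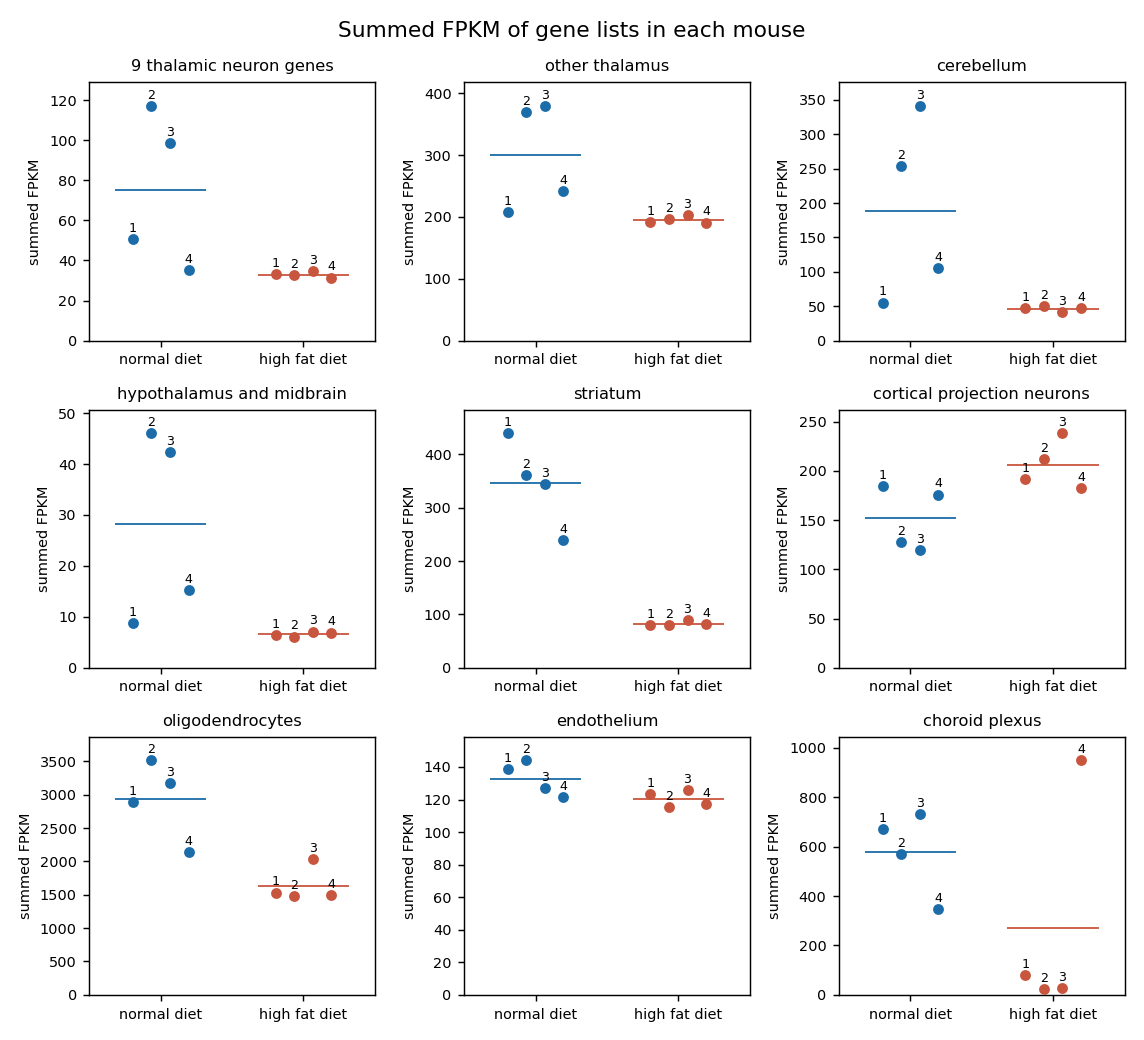
FPKM summed over the 9 members, 16 other thalamus genes and 7 marker lists (linear axes from 0) in 4 normal diet mice (blue) and 4 high fat diet mice (red), with mouse numbers and lines at the diet means. Normal mice 2 and 3 are the highest for the members, the other thalamus genes, cerebellum, hypothalamus and midbrain, and oligodendrocytes. They are the lowest for cortical projection neurons.

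Tcf7l2 and Lef1 act in the Wnt pathway, and other genes of the pathway moved in both directions. Of 84 Wnt pathway genes, 58 had values, with 15 higher and 8 lower in high fat diet mice by limma's adjusted p (17.7% and 15.3% of all genes tested) and a median log2 fold change of 0.07. Their summed FPKM was 1239 to 1294 in normal diet mice and 1331.5 to 1419.3 in high fat diet mice. Normal mice 2 and 3 were highest in 12 of the 58 and lowest in 14. The remaining TCF/LEF genes, Tcf7 and Tcf7l1, were not analysed here.

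Among ligands and secreted regulators, 4 of 17 were higher and 4 lower, against 3 higher and 1 lower without normal mice 2 and 3. Wnt3, a ligand gene, had the same high mice as Tcf7l2, with 0.9, 2.4, 2.3 and 1.0 FPKM in normal mice 1 to 4 and 0.3 to 0.7 in high fat diet mice. It fell by 1.46 on the log2 scale (SE 0.36, limma adjusted p = 0.013), and without normal mice 2 and 3 its limma adjusted p was 0.101. Wnt7a fell by 0.78 (limma adjusted p = 0.0307), a call kept only without normal mouse 1 or 4 among the 8 ways to leave out a mouse, where the limma adjusted p reached up to 0.0822 in the others. Frzb, a secreted Wnt antagonist gene, fell by 0.80 (limma adjusted p = 0.0172), and Wls, needed for Wnt secretion, by 0.27 (limma adjusted p = 0.0127). Rspo2, which enhances Wnt signals, rose by 1.06 (limma adjusted p = 0.00217) and Dkk3 by 0.86 (limma adjusted p = 0.00427). Rspo1, a relative of Rspo2, rose by 0.66 (limma adjusted p = 0.0337), a call that did not hold without normal mouse 2 or 3 or high fat mouse 1, 2 or 3 (limma adjusted p up to 0.0861).

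Of 13 Wnt receptor genes, 2 passed limma's adjusted threshold, both lower in high fat diet mice (15.3% of all genes tested). They were Lgr4 (-0.31, limma adjusted p = 0.00927) and Ryk (-0.35, limma adjusted p = 0.00489). Without normal mouse 1 the count was 4, with 3 lower and 1 higher. Without normal mice 2 and 3, 1 was lower and 1 higher, and Lgr4 did not pass (limma adjusted p = 0.0682). Of 28 genes for beta-catenin, its degradation and its partners in transcription, 11 were higher and 2 lower (17.7% and 15.3% of all genes tested). Without normal mice 2 and 3, 7 of the 28 were higher and 2 lower. Bcl9, a coactivator of beta-catenin, rose from 2.88 ± 0.427 to 5.28 ± 0.602 FPKM (n = 4 each; log2 fold change 0.86, limma adjusted p = 0.00139). Beta-catenin itself (Ctnnb1), the partner of the Tcf7l2 protein, was at 164 ± 7.26 against 145 ± 9.13 (log2 fold change -0.17, limma adjusted p = 0.0399), and that call did not hold without normal mouse 1, 2 or 3 or high fat mouse 2 or 3 (limma adjusted p up to 0.105). Csnk1a1 fell by 0.17 (limma adjusted p = 0.0167), but had a limma adjusted p of 0.0509 without normal mouse 2.

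The other members have relatives that moved in different directions. Slc17a7, the cortical counterpart of Slc17a6, was at 290.4, 218.7, 209.5 and 315.8 FPKM in normal mice 1 to 4 and at 337.1 to 403.9 in high fat diet mice. It was thus lowest in the mice with the most Slc17a6, and it rose by 0.49 (SE 0.13, limma adjusted p = 0.0193), a call that did not hold without normal mouse 2 or high fat mouse 3 (limma adjusted p up to 0.0538). Among other protein kinase C genes, Prkch and Prkcq fell by 1.40 and 0.74 (limma adjusted p = 0.00112 and 0.00267), as Prkcd was lower, while Prkce rose by 0.49 (limma adjusted p = 0.00441). Prkcb, the most abundant of those named here, was at 231 ± 33.4 against 248 ± 12.6 FPKM and did not pass (limma adjusted p = 0.402). Prkch was at 4.8, 5.0, 4.7 and 2.7 FPKM in normal mice 1 to 4, without the step between normal mice 1 and 2 that Prkcd had.

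Tnnt2, which encodes the cardiac form of troponin T, rose from 2.25 ± 0.342 to 5.53 ± 0.310 FPKM (log2 fold change 1.27, limma adjusted p = 0.000233), the opposite direction to the values of Tnnt1. Tnnc1 fell by 0.73 (limma adjusted p = 0.0301), a call that did not hold without normal mouse 1 or 4 or high fat mouse 1, 2 or 4 (limma adjusted p up to 0.0699), and Tnni1 did not pass (limma adjusted p = 0.0565). Synpo, the relative of Synpo2, rose by 0.49 (limma adjusted p = 0.0232), a call that did not hold without normal mouse 2 or high fat mouse 2 or 3 (limma adjusted p up to 0.0633). Plekhg5 rose by 0.68 (limma adjusted p = 0.0067), and Plekhg3 did not pass (-0.39, limma adjusted p = 0.0562) except without normal mouse 4 or high fat mouse 3. Ramp1 and Ramp2, relatives of Ramp3, and Calcrl, the gene of a receptor that these proteins bind, did not pass, with log2 fold changes of 0.07, 0.07 and -0.18. Over all 76 relatives with values, 21 were higher and 11 lower (17.7% and 15.3% of all genes tested).

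**Figure D5:**
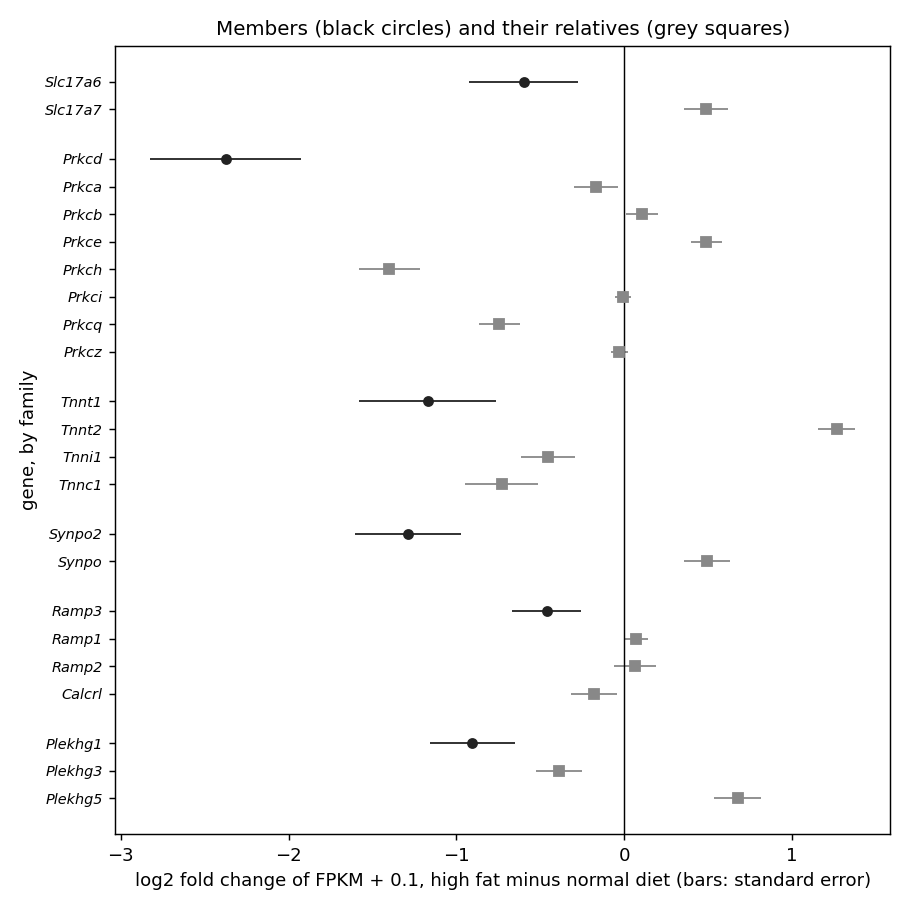
Log2 fold change of FPKM + 0.1 (high fat minus normal diet, all 8 mice) with its standard error, for 6 members (black circles) and their relatives (grey squares), grouped by family. The relatives of each member lie on both sides of 0 or on the side opposite to the member, as Slc17a7 at 0.49 against Slc17a6 at -0.60.

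The sum of FPKM over all genes was 562431 to 639142 per mouse and did not follow the order of the member sums. No batch or date of collection was found in the labels. FPKM carries no read counts, so the depth behind a value is unknown, and the rounding to 0.1 weighs most on Shox2, Tcf7l2, Lef1, Synpo2 and Tnnt1. Over all genes tested, 33.1% passed the adjusted threshold (4626 of 13982), and 7.13% also changed by over 50%, with 4.23% higher and 2.9% lower. A log2 fold change below 0, as all 9 members had, was found for 49.4% of all genes, and nothing is read from this because the diet difference was known.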

How the data were processed

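RNA from the cortexes of 8 mice (4 per diet) was measured by stranded, paired-end sequencing, with 1 library per mouse. The deposited FPKM values were made by the authors with STAR alignment of Trimmomatic-trimmed reads to mm10, followed by Cuffnorm with a GENCODE annotation of GRCm38.p6, and they are rounded to 0.1. No versions of these tools are stated in the sources read here. The read depth is unknown, so no interval from counts can be given. The second quantification by the authors, with Salmon and edgeR, was not used here.

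From the FPKM values, log2(FPKM + 0.1) of 13982 genes (mean FPKM of at least 1, no FPKM of 0) was compared between the diets with limma 3.58.1 in R 4.3.3, two-sided, with a variance trend and Benjamini-Hochberg adjustment. A gene was called at an adjusted p below 0.05. Shox2 was fitted with all 13996 genes. The members and the gene lists were chosen with earlier results of these data known, so no p is given for the members. Of the relatives and other thalamus genes, the text takes its names from those called with over 50% change and up to 4 further genes per group with the highest mean FPKM, and the 10 genes most correlated with the members. Of marker lists it names genes from the 4 with the highest mean FPKM, and also Cnksr3 and Clic6, because a sum or a count rests on them. The results of 2 genes of the lists are not reported here.

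Gene coordinates come from GENCODE M21 on GRCm38, and promoter windows from RefSeq on GRCm38.p6, where 9 of 9 members matched. Tables and figures were made with matplotlib 3.10.9, pandas 2.3.3 and numpy 2.4.6 in Python 3.11.15. The procedure was tested on simulated data for the diet comparison over 13982 genes, which recovered 89 of 100 genes changed 2-fold and 98 of 100 changed 3-fold, and called 16 unchanged genes. The simulated noise was independent between genes and equal in both diets, and few genes were changed, whereas 33.1% passed in the data. It does not show how often unchanged genes are called where mice share a pattern across genes, as normal mice 2 and 3 did. Alternatives were added constants of 0.5 and 1, no filter, a mean FPKM of at least 5, quantile normalization, median-ratio rescaling, a fit with no variance trend, a replicate block, and leaving out each mouse.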

Additional observations from a re-analysis of the deposited data

Results flagged for a closer look

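In 15 of 250 groups of 4 mice examined (genes and marker sums of each diet), 1 mouse lay far from the other 3 by Dixon's gap-to-range ratio, where chance flags about 1 in 20 groups. None of these groups belongs to the 9 members. Rora, the gene of the other thalamus list most like the members, is flagged, with 17.5 FPKM in high fat mouse 4, below 19 to 19.2 in the other 3.

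High fat mouse 4 also stood apart in the choroid plexus, the tissue that makes cerebrospinal fluid. Its marker sum was 950.3 FPKM, with Ttr at 920.7, Folr1 at 7.2, Kl at 5.7 and Kcnj13 at 9.7, far above the other 3 high fat diet mice. The member sum of that mouse was 31.4, the lowest of the 8 mice. High fat mouse 3 was the highest of its diet in mature oligodendrocyte markers, with a sum of 2037.8, Mbp at 949.5 and Mobp at 402, and its member sum was 34.7, the highest of its diet.

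Single values were also apart for the newly formed oligodendrocyte sum in high fat mouse 4 (31.9), Cldn5 in normal mouse 1 (26.4), Acta2 in high fat mouse 2 (7), Prkch in normal mouse 4 (2.7), Prkcq in high fat mouse 1 (2.4) and Plekhg3 in high fat mouse 3 (4), all in FPKM.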

How the results depend on the processing

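Without normal mice 2 and 3, a setting chosen after seeing the data, the median log2 fold change of the 9 genes moved from -1.17 to -0.447, the count of genes changed by diet from 4626 to 2743, and that of other thalamus genes from 8 to 5 of 16. Lef1 then turned to 0.327 and Slc17a6 to 0.0899, the only members that changed sign in this setting. This setting has fewer mice and leaves out the 2 highest in every member, so it can only raise their values. With each mouse left out in turn, Lef1 ranged from -0.384 to 0.0757, with 0.000122 without high fat mouse 4, the median of the 9 genes from -1.59 to -0.865, the genes changed by diet from 3295 to 4619 and the other thalamus genes from 6 to 11. Shox2 moved to -2.01 and -1.45 with 0.5 and 1 added, since its high fat diet values are at most 0.2. Under the rescalings, the other constants and no variance trend, the median of the 9 genes stayed between -1.21 and -0.893; other filters were run for the counts of genes only. The median log2 fold change of all genes stayed within 0.01 of 0. With the replicate number as a block, 3390 genes changed by diet, 8 other thalamus genes, 22 relatives (32 without it) and 38 markers (43 without it) passed. No pairing of mice by number is stated in the sources read here. Deviations from the diet means of mice with the same number correlated between -0.109 and -0.0275, so no shared positive deviation was seen. These values cannot show whether such mice were handled together, and the block may group mice that share only a number. The limits are the unknown depth, the rounding to 0.1 and 4 mice per diet.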

Other observations

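Marker lists of the choroid plexus, the hippocampus and vascular smooth muscle were measured as well. Choroid plexus markers summed to 346.1 to 731.9 FPKM in normal diet mice and 23.1 to 950.3 in high fat diet mice, and 2 of 6 were lower by limma's adjusted p (15.3% of all genes tested). This count was 6 without high fat mouse 4, and without normal mouse 1, 2 or 3 or high fat mouse 1, 2 or 3 neither of the 2, Folr1 and Clic6, passed. Of 5 hippocampal markers with values, 3 were lower and 1 was higher (15.3% and 17.7% of all genes tested). The higher gene was the endoplasmic reticulum gene Wfs1 (0.80, limma adjusted p = 0.00701). Without both normal mice 2 and 3, 1 of the 5 passed, as lower, and Wfs1 did not pass (limma adjusted p = 0.0515). Of the lower genes, Fibcd1 (limma adjusted p = 0.0485) kept its call in only 2 of the 8 ways to leave out 1 mouse. The 5 markers summed to 43.8 to 45.7 FPKM in normal diet mice and 35.4 to 61 in high fat diet mice. The hippocampal sum did not single out normal mice 2 and 3, which held 43.8 and 44.5. Vascular smooth muscle markers summed to 19.4 to 24.7 against 20.4 to 24.9, and adjusted p from limma lay between 0.482 and 0.983 for the 4 with values.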
